A study of Mus musculus with 4 samples.

Results

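The 10 genes described here encode extracellular antagonists of Wnt signalling and a receptor that works with some of them: Notum, Sfrp1, Sfrp2, Sfrp5, Frzb, Dkk1, Dkk2, Dkk3, Wif1 and Kremen1. They were chosen by name, and all 10 were found among the 24339 genes of the deposited table. Their transcripts were measured in GFP-positive mesenchymal nephron progenitors, the kidney cells from which nephrons form, sorted from mouse kidney by flow cytometry. The Six2TGC line carries a bacterial artificial chromosome transgene and gave 2 libraries. The Six2Cre line, with the genotype Six2 Cre/+, carries a Six2-T2A-GFP-Cre knock-in and also gave 2 libraries. Both lines make Cre recombinase joined to GFP in Six2-expressing cells, so no library came from progenitors without GFP-Cre. The labels give no age, but the authors' table is named for embryonic day 18. Nor do they state if the replicates are separate animals, so each p-value reflects only the spread between these samples.

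Wnt proteins are lipid-modified ligands that bind Frizzled receptors together with the co-receptors LRP5 and LRP6, and this stabilises beta-catenin, which acts in the nucleus with TCF and LEF factors. In the developing kidney, Wnt9b from the ureteric bud acts on the progenitors, and Wnt4 drives their conversion into epithelium. The antagonists act at separate steps. Notum is a secreted enzyme that removes the lipid from Wnt proteins, the secreted Frizzled-related proteins and Wif1 bind Wnt proteins, and Dkk1 binds the LRP co-receptors. Kremen1 is not secreted: it is a membrane receptor for Dkk proteins. Several of these genes are known as targets of the pathway they restrain, among them Notum and Dkk1.

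Every one of the 10 genes had a higher mean level in Six2TGC than in Six2Cre. In 9 of 10, both Six2TGC libraries lay above both Six2Cre libraries, an order found in 26.5% of the 17341 genes with a value above 0 in at least 1 library. Levels are given as FPKM, fragments scaled by transcript length and by library size, as deposited. The lines were compared with limma on log2(FPKM + 1) over the 11917 genes whose mean FPKM reached 1, and a gene was called at a Benjamini-Hochberg adjusted p under 0.05. Of the 10 genes, 6 were tested, and 4 had a mean under 1 and were not. Notum, Sfrp2, Dkk3 and Kremen1 were called higher in Six2TGC, Sfrp1 and Frzb had no call, and none was called lower. Over all genes tested, 24.3% were called and 10.8% were called higher in Six2TGC. Notum reached the filter through its Six2TGC libraries, so the count among tested genes is a description. With 2 libraries per line, an exact permutation test of a single gene cannot give a two-sided p below 0.333, so the calls rest on the spread that limma shares across genes. Where 1 library is left out, its line keeps 1, so the spread then comes from the other line. A call gained in such a fit adds no support.

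**Figure D1:**
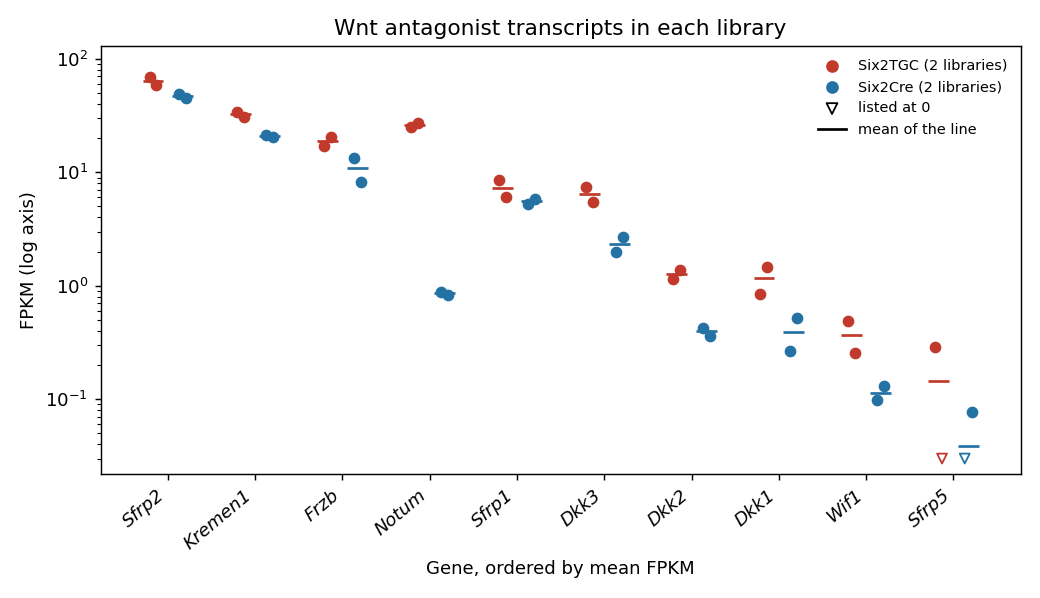
FPKM of each Wnt antagonist gene on a log axis, with 1 point per library, a bar at the mean of each line, and open triangles for libraries listed at 0. Notum shows the widest gap, from 25.0 and 27.3 in Six2TGC to 0.883 and 0.836 in Six2Cre, and Sfrp5 is the gene whose lines overlap.

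The libraries correlated at 0.982 and 0.984 within the lines and at 0.948 to 0.952 between them (Pearson r of log2(FPKM + 1) across 11917 genes, which are not independent replicates). Summed FPKM ranged from 481665 to 549971. Depth relative to Six2TGC replicate 1, estimated from the ratios of low values, was 0.958 for Six2TGC replicate 2 but 1.85 and 1.88 for Six2Cre, which leaves less precision for low levels in Six2TGC. Six2 stood at 749 and 816 in the Six2TGC libraries, against 545 and 533 in the Six2Cre libraries, so this defining gene of nephron progenitors was high in all 4 libraries. Cited1, another marker of these cells, differed far more between the lines, at 109 and 94.6 against 907 and 878. Six2TGC replicate 1 stood apart in genes of the sex chromosomes. Xist, which is transcribed from the inactive X, was at 0.0107 there against 56.7 to 75.7 in the other libraries, and the Y-linked gene Ddx3y was at 12.7 there and listed at 0 in the others. The Six2TGC libraries thus differ as male and female tissue do, and are not repeats of 1 RNA sample, whereas the Six2Cre libraries show no such difference and their spread may be technical.

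Notum carried the greatest difference among the 10 genes. Its FPKM was 25.0 and 27.3 in the Six2TGC libraries, against 0.883 and 0.836 in the Six2Cre libraries. The lines were far apart and the libraries of each line lay close together. The ratio of means was 30.4, with 26.1 ± 1.59 against 0.859 ± 0.0333 (SD, n = 2 libraries per line). On the log2 scale the rise was 3.87 ± 0.116 (SE), with an adjusted p of 4.11e-06 in limma. Among all 11917 genes tested it was the rise ranked 6. The gene lies on chromosome 11 at 120653789 to 120660837 (mm10), and GENCODE M21 lists the antisense genes Notumos and Myadml2os as overlapping it. The sources used here do not say whether counting used strand, so reads of Notum and of its antisense partners cannot be told apart.

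By the shape of their profile over the 4 libraries, centred on each gene's mean log2(FPKM + 1), the tested genes nearest to Notum were Six3os1, a noncoding gene beside Six3, Nxph1 and Wnt4. Their root mean square differences from it were 0.0686, 0.222 and 0.268. Nxph1, which encodes a neurexin-binding protein, stood at 16.2 and 20.9 in Six2TGC and at a listed 0 in each Six2Cre library. Wnt4 stood at 110 and 120 in the Six2TGC libraries, against 9.36 and 11.2 in the Six2Cre libraries. With 4 libraries in 2 lines, likeness of this kind says little more than that these genes share the size of the difference between lines.

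The secreted Frizzled-related proteins carry a domain like the Wnt-binding part of Frizzled receptors. Sfrp2 was the most abundant of the 10 transcripts in each of the 4 libraries, at 69.2 and 59.3 in the Six2TGC libraries, against 49.4 and 44.9 in the Six2Cre libraries. The lines did not overlap, but the gap between their nearest libraries was about as wide as the gap between the Six2TGC libraries. Sfrp2 was 1.36-fold higher in Six2TGC, a log2 rise of 0.44 ± 0.0974 (SE, limma adjusted p = 0.0173). That call was lost without Six2TGC replicate 1 (limma adjusted p = 0.0532), without Six2Cre replicate 1 (0.0711) and without Six2Cre replicate 2 (0.140). Sfrp2 lies on chromosome 3 at 83766321 to 83774314, where GENCODE M21 also lists the antisense gene Gm26771.

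Frzb, also known as Sfrp3, came next in the family, at 16.9 and 20.7 in the Six2TGC libraries, against 13.4 and 8.25 in the Six2Cre libraries. The Six2Cre libraries differed more from each other than the nearest libraries of the lines did. The ratio of means was 1.74, and the log2 difference of 0.77 ± 0.237 (SE) had no call (limma adjusted p = 0.0785). The difference was 1.09 without Six2Cre replicate 1 and 0.45 without Six2Cre replicate 2. Frzb had a q-value of 0.000873 in the authors' deposited table. The gene lies on chromosome 2 at 80411970 to 80447396.

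Sfrp1 stood at 8.48 and 6.06 in the Six2TGC libraries, against 5.27 and 5.87 in the Six2Cre libraries, so Six2TGC replicate 2 was close to the Six2Cre libraries. The log2 difference of 0.32 ± 0.160 (SE) had no call (limma adjusted p = 0.190), and the authors' deposited table gave a q-value of 0.218. The difference was 0.53 without Six2TGC replicate 2 and 0.10 without Six2TGC replicate 1. Sfrp5 was near the limit of detection, at 0.290 in Six2TGC replicate 1 and 0.0776 in Six2Cre replicate 2, and it was listed at 0 in the other libraries. The lines overlapped, and no fold is given. Sfrp1 lies on chromosome 8 at 23411502 to 23449632 and Sfrp5 on chromosome 19 at 42197971 to 42202252.

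Among the Dickkopf genes, Dkk3 was the most abundant, at 7.46 and 5.50 in the Six2TGC libraries, against 2.00 and 2.70 in the Six2Cre libraries. Dkk3 is the divergent member of the family and is not regarded as a standard ligand of the LRP co-receptors. The lower Six2TGC value thus lay above the higher Six2Cre value. The ratio of means was 2.76, and the log2 rise was 1.16 ± 0.178 (SE, limma adjusted p = 0.00414). The gene lies on chromosome 7 at 112116019 to 112159057.

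Dkk1, which blocks LRP5 and LRP6, stood at 0.854 and 1.46 in the Six2TGC libraries, against 0.264 and 0.521 in the Six2Cre libraries. The lines did not overlap, and the ratio of means was 2.95. Its mean lay under the filter. Without a filter it had no call (log2 difference 0.62, limma adjusted p = 0.0874), and its q-value in the authors' deposited table was 0.0800. Dkk2, which binds the same co-receptors and can activate or inhibit the pathway, stood at 1.15 and 1.39 in the Six2TGC libraries, against 0.427 and 0.364 in the Six2Cre libraries. Its libraries lay closer together within each line than those of Dkk1. The ratio of means was 3.22. Dkk2 also lay under the filter, and without a filter it was called, at 0.70 ± 0.125 on the log2 scale (SE, limma adjusted p = 0.0256). The authors' deposited table gave Dkk2 a q-value of 0.0101. Because 1 is added to each value, log2 differences at such low levels understate the ratio.

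The 3 Dickkopf genes thus had ratios of 2.76 to 3.22, and Sfrp1, Sfrp2 and Frzb had ratios of 1.30 to 1.74. Whether the families differ in this was not tested. Dkk1 lies on chromosome 19 at 30545885 to 30549496, and Dkk2 on chromosome 3 at 132085292 to 132180304.

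Kremen1 was the second most abundant transcript of the set, at 34.0 and 30.9 in the Six2TGC libraries, against 21.2 and 20.6 in the Six2Cre libraries. The Six2Cre libraries were nearly equal, and the lines were well apart. The ratio of means was 1.55, with a log2 rise of 0.61 ± 0.0844 (SE, limma adjusted p = 0.00253). It lies on chromosome 11 at 5191553 to 5261610. Wif1, whose product binds Wnt proteins through a domain of its own, stood at 0.487 and 0.254 in the Six2TGC libraries, against 0.0987 and 0.130 in the Six2Cre libraries. The ratio of means was 3.24. Wif1 was under the filter, had no call without a filter (limma adjusted p = 0.124) and was not tested in the authors' deposited table. It lies on chromosome 10 at 121034004 to 121100642.

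**Figure D2:**
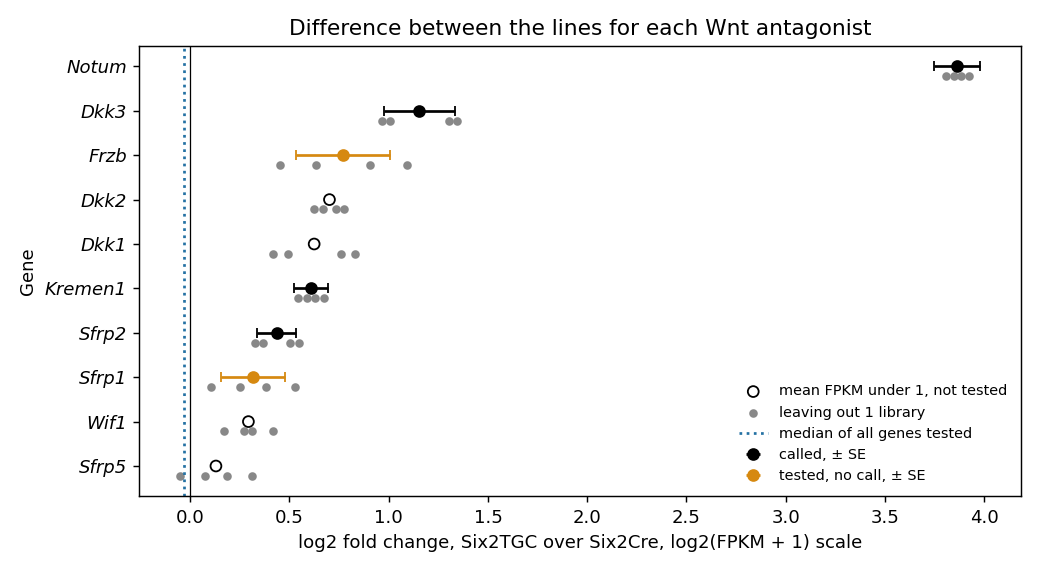
Log2 fold change of Six2TGC over Six2Cre on the log2(FPKM + 1) scale for each Wnt antagonist gene, with the SE for the 6 tested genes, open circles for the 4 under the filter and grey points for the value without each library in turn. Notum stands at 3.87 and the other genes between 0.13 and 1.16, and leaving out a library takes Sfrp5 alone below 0.

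In the authors' deposited table, 8 of the 10 genes were tested. Of these, 6 were significant and higher in Six2TGC (Notum, Sfrp2, Frzb, Dkk2, Dkk3 and Kremen1), where 6.94% of 12158 genes were. That table gave the same q-value of 0.000873, the lowest it holds, to Notum, Frzb and Dkk3. The tests thus differed on Frzb, and on Dkk2, which was under the filter in limma.

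FPKM is scaled by transcript length, so the levels can be ordered. In Six2TGC the order from high to low was Sfrp2, Kremen1, Notum, Frzb, Sfrp1, Dkk3, Dkk2, Dkk1, Wif1 and Sfrp5. The libraries of neighbours overlapped for Sfrp1 and Dkk3, for Dkk2 and Dkk1, and for Wif1 and Sfrp5. In Six2Cre the order was Sfrp2, Kremen1, Frzb, Sfrp1, Dkk3, Notum, Dkk2, Dkk1, Wif1 and Sfrp5, where neighbours overlapped for Dkk2 and Dkk1. Notum thus held rank 3 in Six2TGC and rank 6 in Six2Cre.

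The summed level of the 10 genes was 164 and 153 in the Six2TGC libraries, against 93.0 and 84.2 in the Six2Cre libraries, a ratio of 1.79. Without Notum the sums were 139 and 126 against 92.1 and 83.4, a ratio of 1.51. Notum made up 15.3% and 17.8% of the sum in the Six2TGC libraries and 0.949% and 0.992% in the Six2Cre libraries. The share of Sfrp2 was 42.2% and 38.8% in Six2TGC and 53.2% and 53.3% in Six2Cre. That of Kremen1 was 20.8% and 20.2% against 22.8% and 24.5%. Sfrp2 and Kremen1 thus took a smaller share in Six2TGC although their levels were higher there.

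**Figure D3:**
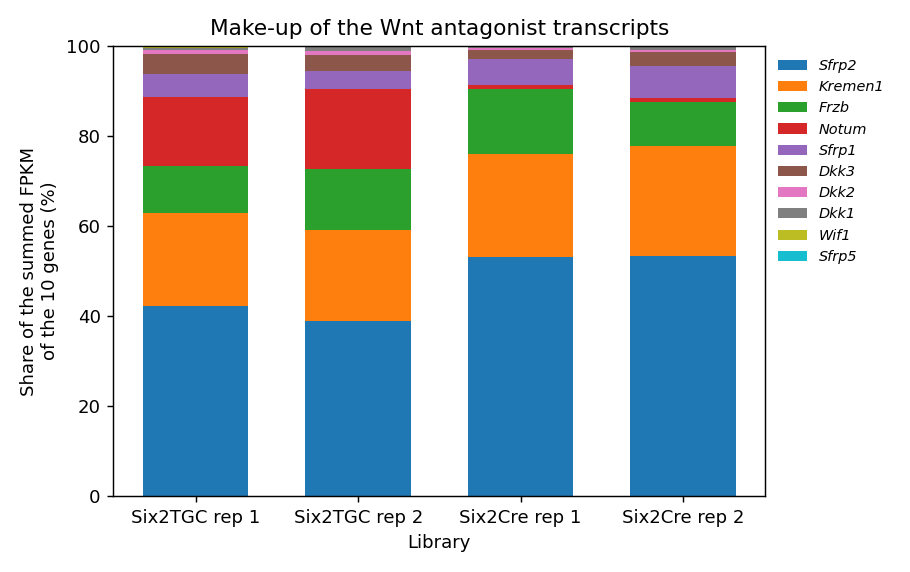
Share of each gene in the summed FPKM of the 10 Wnt antagonist genes, in percent, with 1 bar per library. Notum takes 15.3% and 17.8% in the Six2TGC libraries and under 1% in the Six2Cre libraries, and Sfrp2 is the widest segment of every bar.

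RefSeq promoter windows, from 250 bases before to 50 bases after an annotated start (GRCm38.p6, the assembly behind mm10), were matched by symbol for 6 of the 10 genes: Sfrp2, Sfrp5, Frzb, Dkk1, Dkk2 and Wif1. They were searched on both strands for CTTTGA, the core of sites bound by TCF and LEF factors, and for TATAAA, the core of the TATA box. The first was present in 16% of all 32851 windows and the second in 13.6%. Frzb held CTTTGA at -95 and Dkk1 at -174 and -117, counted from the start to the leftmost base of the match. TATAAA was found in Dkk1 at -54, in Dkk2 at -32 and, on the opposite strand, in Wif1 at -232. Sfrp2 and Sfrp5 held neither run of letters. The windows of Frzb, Dkk1 and Dkk2 are shown because they hold these matches and stand for both families. Each reads 5′ to 3′ on the strand of the gene, with matches to either motif in capitals (TCAAAG is CTTTGA on the opposite strand). They come from chr2:80447347-80447646 (minus strand), chr19:30549447-30549746 (minus strand) and chr3:132085042-132085341 (plus strand).
Frzb: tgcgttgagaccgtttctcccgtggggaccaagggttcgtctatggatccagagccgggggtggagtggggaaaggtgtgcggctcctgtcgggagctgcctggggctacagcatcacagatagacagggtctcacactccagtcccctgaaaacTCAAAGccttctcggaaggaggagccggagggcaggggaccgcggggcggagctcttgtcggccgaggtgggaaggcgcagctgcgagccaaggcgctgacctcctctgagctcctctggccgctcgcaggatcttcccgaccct
Dkk1: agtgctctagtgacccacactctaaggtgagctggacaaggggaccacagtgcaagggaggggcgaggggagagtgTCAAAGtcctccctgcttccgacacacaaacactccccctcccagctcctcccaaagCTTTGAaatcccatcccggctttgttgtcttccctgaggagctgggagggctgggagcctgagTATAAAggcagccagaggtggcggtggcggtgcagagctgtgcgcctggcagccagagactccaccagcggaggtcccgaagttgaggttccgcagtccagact
Dkk2: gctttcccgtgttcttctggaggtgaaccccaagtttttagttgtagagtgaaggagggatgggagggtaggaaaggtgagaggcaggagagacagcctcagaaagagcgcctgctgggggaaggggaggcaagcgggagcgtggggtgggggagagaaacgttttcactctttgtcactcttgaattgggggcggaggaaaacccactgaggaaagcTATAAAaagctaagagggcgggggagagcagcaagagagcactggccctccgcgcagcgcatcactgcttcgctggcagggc

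These matches describe letters in short windows, and no binding was measured. GC content of the windows was 64.7% for Frzb, 60.7% for Dkk1 and 57.7% for Dkk2, beside a median of 52.7% over all windows.

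Other genes of the Wnt pathway were described from lists, by counts and median log2 fold change. Over all 11917 genes tested, 1286 were called higher and 1614 lower, with a median of -0.03. The 6 tested antagonists had a median of 0.69. Of 16 other inhibitors of Wnt signalling, 10 were tested, 4 were higher and 2 lower, with a median of 0.26. Igfbp4, which encodes a binding protein of insulin-like growth factors that also restrains Wnt signalling, rose by 1.60, from 108 and 111 in Six2Cre to 327 and 341 in Six2TGC. Apcdd1, a membrane inhibitor of the pathway, rose by 1.06. Sostdc1, a secreted antagonist, fell by 1.45, with 0 and 0.165 in the Six2TGC libraries, against 2.70 and 1.36 in the Six2Cre libraries. Without either Six2Cre library Sostdc1 fell under the filter, and the authors' deposited table gave it no significant difference, at a q-value of 0.291. Sostdc1 also reached the filter through Six2Cre alone. The other call in this direction was Draxin, a secreted guidance protein of axons that restrains Wnt signalling, at 2.31 and 1.83 against 3.68 and 3.40 (limma adjusted p = 0.0326). The Draxin call was lost without a filter (limma adjusted p = 0.0556), without Six2TGC replicate 2 and without either Six2Cre library. It was kept with a pseudocount of 0.1, rescaling by trimmed means, quantile normalization and the replicate number as a block. The authors' deposited table also called Draxin lower, at a q-value of 0.0177. With a filter at a mean FPKM of 5, Sostdc1 and Draxin were not tested, and no other gene of this list was called lower. Tpbg and Sost had no call, at 0.28 and -0.77. Without Six2TGC replicate 1 they stood at 0.38 and -1.15.

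Among 19 Wnt ligand genes, 5 were tested, 3 were higher and 0 lower, with a median of 1.27. Wnt4 rose by 3.37, Wnt11 by 1.38 and Wnt5a, a ligand best known for signalling without beta-catenin, by 1.27. Wnt5a, whose value is the list median, reached the filter through Six2TGC, with a mean of 2.80 there against 0.575 in Six2Cre. Ligand transcripts summed to 132 to 139 in Six2TGC and 25.2 to 27.9 in Six2Cre, most of it Wnt4 in Six2TGC. Of 12 Frizzled and LRP genes, 11 were tested, 4 were higher and 0 lower, with a median of 0.22. Fzd10 rose by 2.98, Fzd1 by 1.61 and Fzd7 by 0.98. Fzd10 reached the filter through Six2TGC, with a mean of 0.711 in Six2Cre. Fzd5, which had no call, reached it through Six2Cre, with a mean of 0.832 in Six2TGC. The LRP co-receptors that Dkk proteins bind had no call, Lrp5 at 0.25 and Lrp6 at 0.22. However, Lrp5 was called higher under rescaling by trimmed means (limma adjusted p = 0.0484), quantile normalization (0.0407) and a filter at a mean FPKM of 5 (0.0473). Fzd4 had no call, at -0.36, and stood at -0.47 without Six2TGC replicate 1. Among 7 R-spondin and LGR genes, 4 were tested, and Lgr6 (1.56) and Rspo3 (0.52), which strengthen Wnt signalling, were higher. Lgr6 reached the filter through Six2TGC, with a mean of 0.938 in Six2Cre. The Rspo3 call was lost without Six2Cre replicate 1 (limma adjusted p = 0.0917) and without Six2Cre replicate 2 (0.0536).

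Of 7 target and feedback genes of beta-catenin, 6 were tested, 5 were higher and 0 lower, with a median of 0.76. Sp5, a transcription factor gene induced by Wnt signalling, rose by 2.61, Lef1 by 2.05 and the cell cycle gene Ccnd1 by 1.02. Lef1 reached the filter through Six2TGC, with a mean of 4.10 there against 0.233 in Six2Cre. Without Six2Cre replicate 1 the count of higher genes in this list was 3, with Axin2 (limma adjusted p = 0.0848) and Nkd1 (0.186), which encode inhibitors of the pathway inside the cell, losing their call. It was 4 without Six2TGC replicate 1, where Nkd1 had no call (0.0890), and 4 without Six2Cre replicate 2, where Axin2 had none (0.0545). With all libraries kept but no filter, Nkd1 also had no call (limma adjusted p = 0.0633). These Wnt lists were chosen with earlier results of these data known, and their counts are descriptions.

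**Figure D4:**
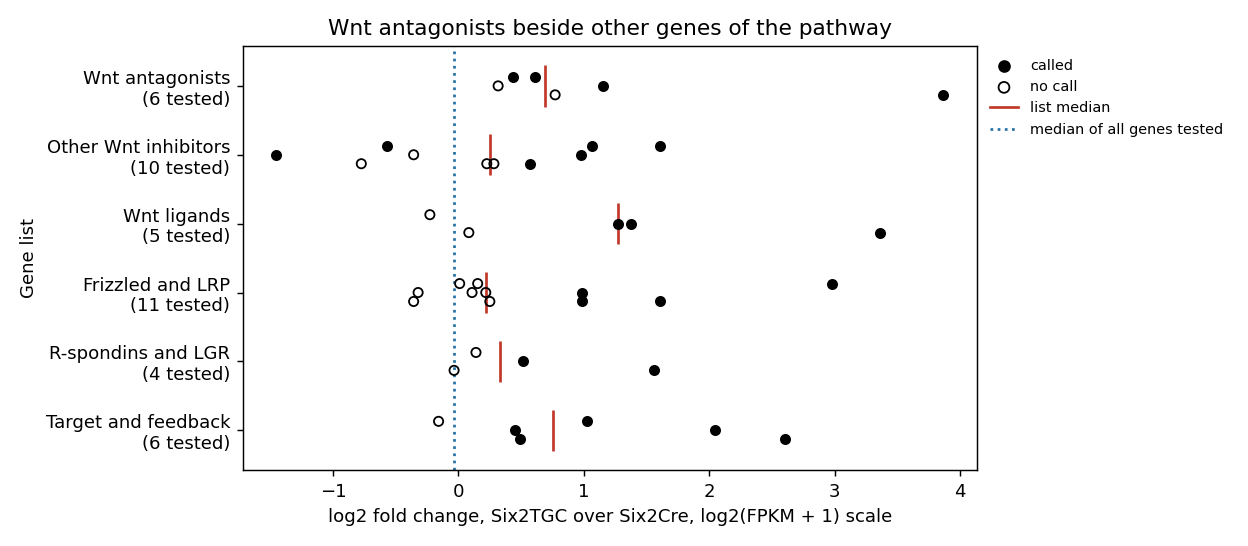
Log2 fold change of Six2TGC over Six2Cre on the log2(FPKM + 1) scale for tested genes of the Wnt antagonists and 5 other Wnt lists, with filled points for called genes, red bars at list medians and a dotted line at -0.03, the median of all genes tested. The antagonists lie to the right of that line, and the other inhibitors lie on both sides of it. Of the calls to its left, Draxin lost its call and Sostdc1 fell under the filter without either Six2Cre library.

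Markers of cell types moved with the lines as well. Some antagonists are also made by stromal cells of the kidney, and of 11 renal stroma markers 10 were tested, 4 were higher in Six2TGC and 0 lower. Their summed FPKM was 185 to 228 in Six2TGC and 145 to 158 in Six2Cre, and none was listed at 0 in all libraries. Foxd1, the defining gene of cortical stroma, stood at 56.9 and 55.2 against 37.3 and 33.2, and Pdgfra at 2.55 and 2.33 against 0.463 and 0.766. Pdgfra reached the filter through Six2TGC. Tcf21, at 72.8 and 58.5 against 59.9 and 70.7, and Dcn, at 4.53 and 2.14 against 3.39 and 3.09, overlapped between the lines. Postn (1.92 against 2.36) and Lum (0.333 against 0.499) had lower means in Six2TGC. Of the 4 calls, that of Foxd1 held without each library in turn. Pdgfra, Pdgfrb and Acta2 lost their calls without Six2Cre replicate 1, and Acta2 also without Six2Cre replicate 2. Col3a1 had no call, at 1.20, and stood at 1.74 without Six2Cre replicate 1 and 0.66 without Six2Cre replicate 2. Col1a1 had no call either, at 0.47. However, the authors' deposited table called Col3a1 and Col1a1 higher, at q-values of 0.000873 and 0.0357. Limma with the replicate number as a block also called them higher (adjusted p = 0.0141 and 0.0166). In each of these settings, 6 stroma markers were higher and 0 lower. Of 8 markers of early differentiating nephrons, 7 were tested, 5 were higher and 2 lower, with sums of 227 to 242 against 92.3 to 93.8. Of 8 nephron progenitor markers, 1 was higher and 4 lower, with sums of 1652 to 1703 against 2189 to 2261. Cited1 weighs heavily in these sums, with a mean of 102 in Six2TGC against 892 in Six2Cre. Six2 (782 against 539), Crym (410 against 345) and Sall1 (185 against 164) had higher means in Six2TGC. The gene called higher was Six2. Those called lower were Cited1 (log2 fold change -3.12), Meox1 (-1.83), Itga8 (-0.59) and Eya1 (-0.29). The Eya1 call was lost without Six2TGC replicate 1 and without either Six2Cre library. It was also lost without a filter (limma adjusted p = 0.0699) and with the replicate number as a block (0.057). The authors' deposited table gave Eya1 a q-value of 0.232. The part of these cell type markers in the differences of the Wnt antagonists was not tested. In bulk samples, a change in the share of cells of a type and a change in RNA per cell cannot be told apart.

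Markers of the remaining cell types were low or had higher sums in Six2Cre. Of 9 ureteric markers, 3 were tested, 1 was higher and 2 lower, with sums of 26.5 to 32.7 in Six2TGC and 49.4 to 51.3 in Six2Cre, and the defining gene Ret stayed between 0.113 and 0.183. The count of lower genes was 1 without either Six2Cre library, where Hoxb7 lost its call, and 3 without either Six2TGC library. Krt18, a keratin gene, fell by 2.26 on the log2 scale, with 2.82 and 1.79 in the Six2TGC libraries, against 12.2 and 17.5 in the Six2Cre libraries (limma adjusted p = 0.00108). Aqp2, a water channel gene of the collecting duct, was under the filter, at 0.0995 and 0 against 1.51 and 1.55. The 6 endothelial markers all had means under 1 and summed to 0.594 to 1.51 against 3.57 to 4.93. The 6 blood and immune markers summed to 12.3 to 14.3 against 22.7 to 23.4, with 2 tested, 0 higher and 1 lower, and Ptprc, the pan-leukocyte marker, at 0.0495 or less in every library. The lower gene, Cd68, made up the largest part of these sums, with means of 7.66 against 18.6. Hba-a1 (4.73 against 3.97), Csf1r (0.437 against 0.129) and Alas2 (0.429 against 0.287) had higher means in Six2TGC.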

How the data were processed

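RNA of sorted GFP-positive cells was sequenced after poly(A) selection in 4 libraries, 2 per line, grouped by sample title. Per the submitters' processing notes, HISAT2 and Cuffdiff were used with mm10, with versions, annotation and strand setting not given in the sources used here. A gene table deposited by the authors holds an FPKM value per library and mean FPKM per line, with the test score, p-value and q-value of their own comparison, per the file headers. It gives no counts, so no counting interval is available. Its fold change column held 506 spreadsheet errors, so ratios were computed from FPKM. Coordinates start from 0 in the table and were raised by 1 at the start.

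The lines were compared with limma (version 3.58.1, run in R 4.3.3) for log2(FPKM + 1). Empirical Bayes used a mean trend and robust fitting. Tests were two-sided, with p-values adjusted over the 11917 genes whose mean FPKM reached 1. The fit was tested on simulated data. Alternatives were a pseudocount of 0.1, no filter, a mean FPKM of at least 5, rescaling by trimmed means, quantile normalization, the authors' q-values, a replicate block and leaving out each library. Named genes were the 10 genes, up to 3 called genes with the largest changes per Wnt list, and the 3 genes nearest in profile to Notum (no antagonist was called lower). Lrp5, Lrp6, Fzd4, Fzd5, Draxin, Tpbg, Sost, Axin2, Nkd1, the markers of cell types, Xist and Ddx3y were chosen after their values were seen. The genes and lists were chosen with earlier results of these data known.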

Additional observations from a re-analysis of the deposited data

How the results depend on the processing

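The number of called genes, 2900, was 1637 by the q-values of the authors' deposited table, and leaving out 1 library gave 1010 to 2803, the lowest without Six2Cre replicate 1 and 1143 without Six2Cre replicate 2. The same count was 2713 with the replicate number as a block and 2379 without a filter. Of the Wnt antagonists, 4 were called with the replicate block, and it changed the call of none of the 10. Same-numbered libraries did not deviate together (r = -0.0399 across genes). That value rests on 1 difference per line and cannot settle whether the numbers pair the libraries. The antagonists called numbered 3 to 6 over all alternatives. Notum and Kremen1 were called under each of 11 alternatives, with log2 fold changes of 3.81 to 4.93 and 0.54 to 0.68 (limma, and log2 ratios of means for the authors' table). Dkk3 was called under each of the 10 that tested it. The share of calls that were higher in Six2TGC was 44.3%, and it was 51.7% after quantile normalization and 50.8% without Six2Cre replicate 1. Sfrp5 went from 0.13 to -0.05 on the log2 scale without Six2TGC replicate 1. Depth limits Sfrp5, Wif1, Dkk1 and Dkk2 most, at a mean FPKM under 1.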

Other observations

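Among inhibitors of Wnt signalling outside the 10 genes, several stood at levels above most of them, and these were chosen after their values were seen. Sost, which encodes sclerostin and is best known from osteocytes of bone, had FPKM values of 22.7 and 13.02 in the Six2TGC libraries, against 30.3 and 29.99 in the Six2Cre libraries. Its log2 difference of -0.77 ± 0.282 (SE) had no call (limma adjusted p = 0.142), but the authors' deposited table called it lower in Six2TGC, with a q-value of 0.00165. In limma the difference was -1.15 without Six2TGC replicate 1 and -0.40 without Six2TGC replicate 2, each with 1 Six2TGC library left. Shisa3, whose product restrains the maturation of Frizzled receptors, was more abundant than any of the 10 genes in all 4 libraries. It rose from 98.1 and 97.0 to 187 and 201, a log2 change of 0.98 ± 0.0740 (SE, limma adjusted p = 0.000171). Shisa2 stood at 88.6 and 85.7 against 67.2 and 82.1, with no call. Rspo1, an R-spondin that strengthens Wnt signalling, stood at 150 in both Six2TGC libraries and at 157 and 151 in Six2Cre, a log2 difference of -0.03 ± 0.0692 (SE, limma adjusted p = 0.758).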
